A study of Mus musculus with 22 samples.

Results

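Genes of lipogenesis and cholesterol synthesis were followed by symbol through liver and the germ cells of the testis in trisomic and euploid male mice. The list held 31 genes of fatty acid and sterol synthesis that are known to be under control of sterol regulatory element-binding proteins (SREBPs). Of these, 26 had a named probe set among the 15780 named genes of the value table. The genes Acaca, Acacb, Hmgcs1, Idi1 and Fdps had none under these symbols and are not analysed here. By role, 3 of the 26 belong to fatty acid synthesis, 5 to desaturation and elongation, 4 to triglyceride assembly, 6 to the transcription factors and their regulators and 8 to sterol synthesis.

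Acetyl-CoA is built into fatty acids, which are then desaturated, elongated and esterified to triglyceride, or it enters the mevalonate route, which leads through squalene to cholesterol. SREBPs are made as membrane-bound precursors. The escort protein SCAP carries them to the Golgi, where the site proteases release the active factor, and INSIG proteins hold the complex back in the endoplasmic reticulum when sterols are plentiful. Liver is a main site of lipogenesis and answers to feeding and insulin, whereas meiotic and later germ cells of the testis are known to use germ cell transcript forms of several sterol genes and to hold sterol intermediates known as meiosis-activating sterols.

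Ts43H trisomic males carry an extra marker chromosome made of the proximal part of chromosome 17 and the tip of chromosome 16, and t121/D17 males are the euploid males they were compared with. All were male and 2 months old, and no treatment is given in the labels. The extra segment is present in every cell of an animal. Effects of the segment within a cell and effects of the rest of the animal therefore cannot be told apart. Any difference in genetic background between Ts43H and t121/D17 males was not tested and cannot be told apart from effects of the segment. None of the 26 genes lies on chromosome 17 or 16. RNA came from whole liver (3 arrays per genotype) and from testis cells that were flow sorted into fractions, namely pre-mid-pachytene spermatocytes (3 per genotype), mid-late-pachytene spermatocytes (2 per genotype) and spermatids (3 per genotype). These are successive stages of sperm formation, from the long middle phase of meiotic prophase to the haploid cells after meiosis. No label says if each array is of a different mouse, so p-values measure only the spread between these arrays, which may be technical.

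Values are log2 intensities after GCRMA, a method that subtracts a background estimated from the base composition of the probes. A level can be compared between samples for the same gene, but not between genes, because probes differ in how strongly they bind. Levels below 3 are called the background range, and a fold against such a level depends on that floor. Within groups, arrays correlated across genes with r between 0.988 and 0.997. Hepatocyte markers had a median level between 15.77 and 15.86 in the liver arrays and between 2.15 and 2.39 in the germ cell arrays. The sorted fractions were not free of other germ cells. Markers of elongating spermatids such as Prm1 and Tnp1 had a median of 13.83 to 14.26 in euploid pre-mid-pachytene spermatocytes, against 10.14 to 11.49 in euploid mid-late-pachytene spermatocytes and 14.52 to 14.84 in euploid spermatids. Of the Sertoli cell markers, Clu and Ctsl were also higher in the pre-mid-pachytene fraction, with means of 13.35 and 13.45, than in the mid-late-pachytene fraction, with 9.01 and 9.07. Cldn11 went likewise, with 6.78 and 4.36, as did Wt1, with 4.96 and 3.0, while Amh, Gata4 and Dhh were in the background range in every euploid germ cell fraction. The median over all Sertoli markers was 4.03 to 4.25, 3.14 to 3.26 and 3.16 to 3.63 in order of stage. The part of these cells in the stage differences below was not tested. In such bulk samples fewer cells of a type and less RNA per cell cannot be told apart.

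For 2 pairs of related regulators, Srebf1 with Srebf2 and Insig1 with Insig2, the region around one start site of each is shown, because the genes of a pair had different calls between the pachytene stages. Each window runs from 250 bases before to 50 bases after the start farthest upstream in RefSeq (GRCm38.p6), read 5′ to 3′ on the gene's strand. Capitals mark 4 motifs searched on both strands, the sterol regulatory element TCACNCCAC, the CCAAT box CCAAT, the E-box CACGTG and the GC box GGGCGG, and no matches overlap in these windows.
Srebf1, chr11:60222532-60222831, minus strand: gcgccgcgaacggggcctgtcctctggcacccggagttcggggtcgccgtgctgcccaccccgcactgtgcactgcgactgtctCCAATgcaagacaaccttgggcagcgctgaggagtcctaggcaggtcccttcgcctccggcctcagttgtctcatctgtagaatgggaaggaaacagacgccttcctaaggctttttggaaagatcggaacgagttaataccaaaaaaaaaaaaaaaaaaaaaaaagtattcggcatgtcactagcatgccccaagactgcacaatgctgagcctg
Insig1, chr5:28071162-28071461, plus strand: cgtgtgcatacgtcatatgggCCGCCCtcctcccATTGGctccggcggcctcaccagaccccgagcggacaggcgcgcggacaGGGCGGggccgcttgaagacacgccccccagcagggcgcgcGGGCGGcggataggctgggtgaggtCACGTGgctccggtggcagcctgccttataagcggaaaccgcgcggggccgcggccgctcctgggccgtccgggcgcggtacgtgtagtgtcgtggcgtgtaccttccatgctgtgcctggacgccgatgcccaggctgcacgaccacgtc
Srebf2, chr15:82147019-82147318, plus strand: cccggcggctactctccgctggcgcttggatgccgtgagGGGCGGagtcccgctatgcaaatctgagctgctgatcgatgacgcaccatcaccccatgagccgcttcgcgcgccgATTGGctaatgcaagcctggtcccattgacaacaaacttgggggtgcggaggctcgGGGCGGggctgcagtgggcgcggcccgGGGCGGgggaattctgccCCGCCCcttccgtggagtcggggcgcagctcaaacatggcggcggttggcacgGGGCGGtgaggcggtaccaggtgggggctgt
Insig2, chr1:121332540-121332839, minus strand: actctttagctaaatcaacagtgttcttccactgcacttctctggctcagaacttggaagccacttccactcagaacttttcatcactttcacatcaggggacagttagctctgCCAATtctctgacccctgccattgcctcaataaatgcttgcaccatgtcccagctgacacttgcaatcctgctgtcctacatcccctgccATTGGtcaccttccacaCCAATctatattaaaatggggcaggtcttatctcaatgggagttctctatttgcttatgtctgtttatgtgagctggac

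The table lists 3 start windows for Srebf1, 3 for Insig2 and 1 each for Srebf2 and Insig1. The Insig1 window held 1 CCAAT box, 1 E-box and 3 GC boxes, and that of Srebf2 held 1 CCAAT box and 5 GC boxes. The Srebf1 window held 1 CCAAT box and that of Insig2 held 3, with no match to the other motifs. Of the 26 genes, 20 had a window in the table. A CCAAT box was found in 16 of the 20, against 38.0% of the 27025 genes with a window. A GC box was found in 12 of the 20 (35.9% of all genes), an E-box in 4, Elovl5, Insig1, Mlxipl and Sc5d (7.24%), and the sterol regulatory element as spelled here in none (1.22%). A match is a run of letters and not a bound site, and a missing match says only that these letters are not in this window.

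Most members were at their highest in liver. Of the 26 genes, 21 had their highest euploid mean there, and 24 had a liver mean of at least 4, the minimum for a test. In euploid males 23 of these 24 were higher in liver than in pre-mid-pachytene spermatocytes (40.1% of all genes tested were higher) and 1, Dgat1, was lower (46.7% of all genes were lower). Against mid-late-pachytene spermatocytes 20 were higher (41.0%) and 3 lower (47.8%), and against spermatids 18 were higher (43.9%) and 3 lower (47.1%). The median difference of the members was 4.28, 4.85 and 5.24 on the log2 scale in the same order, whereas the median over all genes tested was -0.26, -0.35 and -0.19. All tests are two-sided limma tests with Benjamini-Hochberg adjustment over all named genes that passed the minimum, at an adjusted p of 0.05.

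**Figure D1:**
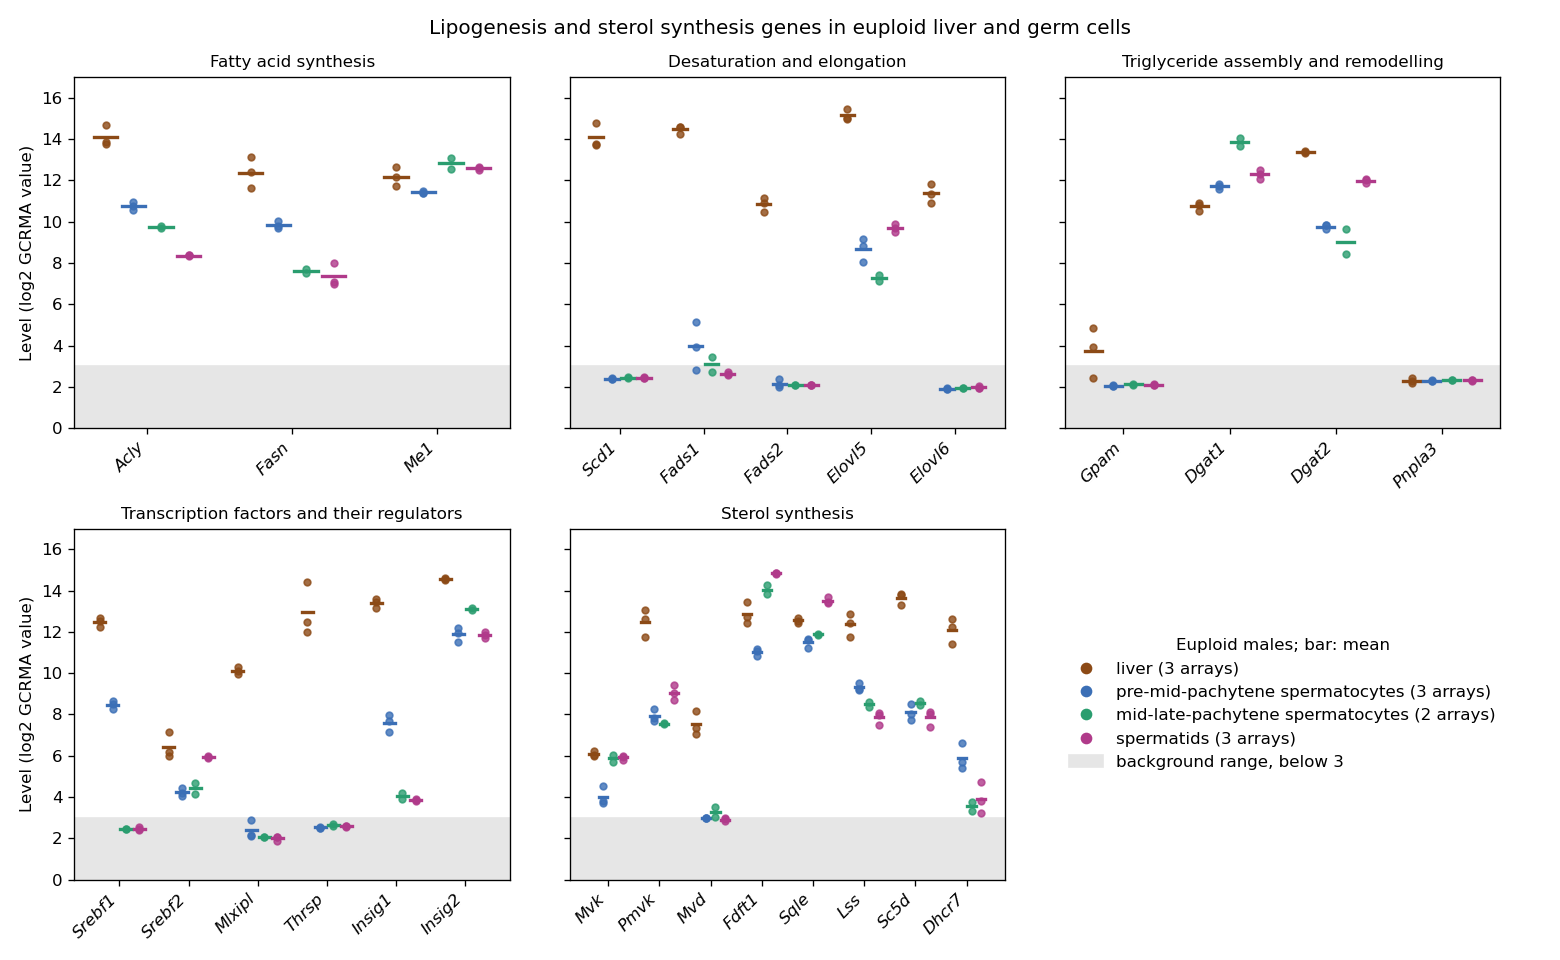
Level (log2 GCRMA value) of each of the 26 genes on the euploid arrays, by role. Points are arrays, bars are group means, colours are cell types, and grey marks the background range below 3. Scd1, Fads2, Elovl6, Mlxipl and Thrsp were high in liver and in the background range in all germ cell types, whereas Dgat1, Fdft1 and Sqle had their highest means in germ cells.

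The genes of desaturation and elongation separated the tissues most plainly. Scd1, the stearoyl-CoA desaturase that makes monounsaturated fatty acids, had levels of 14.80, 13.74 and 13.70 in euploid liver, and its means in the 3 euploid germ cell types lay between 2.38 and 2.45. Fads2, the delta-6 desaturase of polyunsaturated fatty acids, had a mean of 10.84 ± 0.33 (SD, n = 3) in euploid liver and between 2.08 and 2.16 in the germ cell types. Elovl6, which elongates saturated and monounsaturated fatty acids, had 11.37 ± 0.46 (SD, n = 3) in liver and 1.92 to 1.98 in germ cells. Every liver array thus lay above every germ cell array for these genes. Fads1, the delta-5 desaturase, had 14.48 ± 0.19 (SD, n = 3) in liver and was scattered in euploid pre-mid-pachytene spermatocytes, at 5.15, 3.94 and 2.81. Elovl5, an elongase of polyunsaturated fatty acids, was the only gene of this role with a mean above 4 in every germ cell type. Its means were 8.69 ± 0.57 (SD, n = 3), 7.28 ± 0.23 (SD, n = 2) and 9.68 ± 0.20 (SD, n = 3) from pre-mid-pachytene spermatocytes to spermatids, against 15.16 ± 0.27 (SD, n = 3) in liver.

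Of fatty acid synthesis, Acly, which makes cytosolic acetyl-CoA from citrate, and Fasn, the fatty acid synthase, were highest in liver and stepped down along the germ cell stages. Acly had means of 14.10 ± 0.50 (SD, n = 3) in liver and 10.77 ± 0.19 (SD, n = 3), 9.75 ± 0.05 (SD, n = 2) and 8.36 ± 0.03 (SD, n = 3) in the germ cell types in order of stage. Fasn had 12.38 ± 0.75 (SD, n = 3) in liver, 9.84 ± 0.17 (SD, n = 3) in pre-mid-pachytene spermatocytes and then 7.61 ± 0.12 (SD, n = 2) and 7.38 ± 0.56 (SD, n = 3). Me1, the malic enzyme that supplies NADPH, went the other way and had 12.82 ± 0.36 (SD, n = 2) in mid-late-pachytene spermatocytes against 12.19 ± 0.45 (SD, n = 3) in liver. Its liver minus mid-late-pachytene difference of -0.63 (SE 0.26) passed the test (adjusted p = 0.0298). The arrays of these groups overlapped, however, and the call was lost with the arrays of these cell types alone (adjusted p = 0.123) and without liver array 2 or 3 or mid-late-pachytene array 2.

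Triglyceride assembly was shared between the tissues by gene. Dgat1 and Dgat2 are unrelated enzymes that catalyse the same last step of triglyceride synthesis. Dgat1 was lowest in liver, at 10.75 ± 0.20 (SD, n = 3), and peaked in mid-late-pachytene spermatocytes, at 14.06 and 13.67. Dgat2 was highest in liver, at 13.37 ± 0.04 (SD, n = 3), and in germ cells it peaked in spermatids, at 11.99 ± 0.09 (SD, n = 3). Gpam, a mitochondrial glycerol-3-phosphate acyltransferase, ranged from 2.44 to 4.87 in euploid liver, and Pnpla3, a lipid droplet protein with lipase activity, stayed in the background range in every group mean. Neither had a mean of 4 in any cell type, and neither was tested.

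Among the regulators, Srebf1 encodes the SREBP that mainly drives fatty acid genes, and Srebf2 the one that mainly drives sterol genes. Srebf1 had levels of 12.55, 12.67 and 12.25 in euploid liver and of 8.65, 8.25 and 8.52 in pre-mid-pachytene spermatocytes. It was in the background range, between 2.43 and 2.54, on all 5 euploid arrays of the later stages. Srebf2 had 6.45 ± 0.60 (SD, n = 3) in liver and 5.95 ± 0.04 (SD, n = 3) in spermatids, and this difference of 0.50 (SE 0.28) did not pass the test (adjusted p = 0.095). Mlxipl, the carbohydrate-responsive factor ChREBP, had 10.10 ± 0.17 (SD, n = 3) in liver, and Thrsp, a lipogenic target of thyroid hormone and carbohydrate, had 12.96 ± 1.27 (SD, n = 3). Both had germ cell means in the background range.

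Most genes of sterol synthesis were detected in germ cells as well as in liver. Fdft1, the squalene synthase and the enzyme that commits the route to sterols, and Sqle, the squalene epoxidase that follows it, were higher in spermatids than in liver. Fdft1 in euploid spermatids had 14.83 ± 0.04 (SD, n = 3), and liver had 12.88 ± 0.53 (SD, n = 3), a 3.86-fold difference (adjusted p = 1.16e-07). Sqle had 13.50 ± 0.15 (SD, n = 3) and 12.56 ± 0.12 (SD, n = 3), a 1.92-fold difference (adjusted p = 1.17e-05). Mvk, the mevalonate kinase, had 6.08 ± 0.12 (SD, n = 3) in liver and 5.92 ± 0.10 (SD, n = 3) in spermatids, with a 95% interval of the difference from -0.28 to 0.60. Dhcr7, which carries out the last reduction to cholesterol, had 12.09 ± 0.61 (SD, n = 3) in liver against 5.92 ± 0.62 (SD, n = 3), 3.55 ± 0.30 (SD, n = 2) and 3.92 ± 0.77 (SD, n = 3) in the germ cell types. Mvd, the mevalonate diphosphate decarboxylase, had 7.51 ± 0.57 (SD, n = 3) in liver and stood near the background range in germ cells, with means from 2.91 to 3.27.

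Between pre-mid- and mid-late-pachytene spermatocytes of euploid males, 5 of 17 tested genes rose (42.9% of all genes rose) and 8 fell (36.1%). Fdft1 rose 8.02-fold, Dgat1 4.47-fold, Mvk 3.65-fold, Me1 2.63-fold and Insig2 2.35-fold, with adjusted p between 2.26e-09 and 8.90e-05. Srebf1 fell by 6.03 on the log2 scale, to the background range (SE 0.18, adjusted p = 1.78e-15), and Insig1 fell by 3.56 (SE 0.25, adjusted p = 2.69e-10). Dhcr7 fell 5.15-fold, Fasn 4.69-fold, Elovl5 2.66-fold, Acly 2.03-fold, Lss, the lanosterol synthase, 1.78-fold and Dgat2 1.67-fold. For Dgat2 the arrays overlapped, at 9.63, 9.83 and 9.83 against 9.63 and 8.42, and the call was lost without mid-late-pachytene array 2. The call on Lss was lost without mid-late-pachytene array 1. Centring each array on its median raised the median change of all genes from 0.17 to 0.74 and their split from 3885 higher and 3266 lower to 4845 and 2608. It gave 8 members that rose and 5 that fell, because Srebf2, Sqle and Sc5d passed and Acly, Lss and Dgat2 no longer did.

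The paralogues of each regulator pair had different calls at this step, although the difference between 2 genes was not itself tested. Insig1 had levels of 7.69, 7.13 and 7.97 in euploid pre-mid-pachytene spermatocytes and of 3.89 and 4.19 in mid-late-pachytene spermatocytes, where Insig2 went from 11.93, 12.21 and 11.51 to 13.08 and 13.15. No array of the earlier stage overlapped with one of the later stage in either gene. Srebf2, in contrast to Srebf1, had 4.22, 4.03 and 4.42 and then 4.70 and 4.17, which overlapped (adjusted p = 0.533). Both INSIG proteins anchor the SREBP complex, and Insig1 is itself a known SREBP target. The start regions of these 4 genes are printed above.

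**Figure D2:**
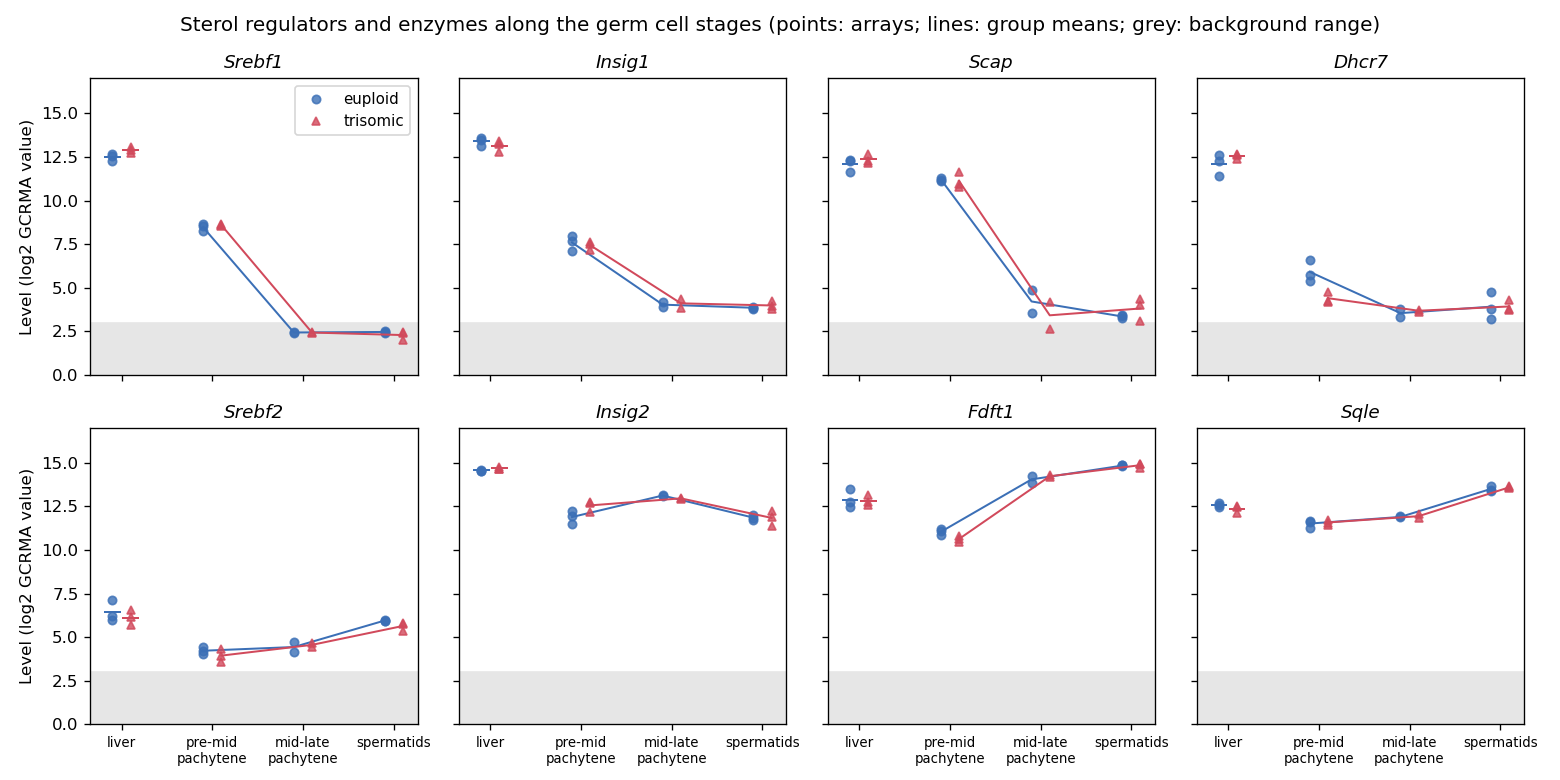
Level (log2 GCRMA value) of 8 genes of the sterol pathway in liver and along the germ cell stages, for euploid (blue circles) and trisomic (red triangles) males. Points are arrays, lines join group means of the germ cell stages, short bars are liver means, and grey marks the background range below 3. Srebf1, Insig1, Scap and Dhcr7 had lower means after the pre-mid-pachytene stage in both genotypes, Fdft1 and Sqle were highest in spermatids, and Insig2 was highest in liver.

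From mid-late-pachytene spermatocytes to spermatids 6 of 15 tested genes rose (29.9% of all genes) and 5 fell (35.0%). The rises were Dgat2 by 7.83-fold, Elovl5 by 5.25-fold, Sqle by 3.05-fold, Srebf2 by 2.86-fold, Pmvk, the phosphomevalonate kinase, by 2.84-fold and Fdft1 by 1.73-fold. Dgat1 fell 2.99-fold, Acly 2.63-fold, Insig2 2.41-fold, Sc5d, the sterol desaturase, 1.62-fold and Lss 1.55-fold. Without mid-late-pachytene array 1 the falls in Sc5d and Lss did not pass, so that 3 members fell, and without array 2 the rise in Fdft1 and the fall in Lss did not. With centring the split of all genes at this step went from 2610 higher and 3058 lower to 2201 and 3962. From the earliest to the last stage 9 of 17 genes rose (48.1% of all genes) and 6 fell (37.0%), with Fdft1 at 13.9-fold and Sqle at 3.97-fold among the rises. Quantile normalization of all arrays lowered the median change of all genes at this step from 0.38 to 0.11, and Me1 and Dgat1 were then not among the rises.

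Further genes of the pathway were taken from lists of sterol synthesis, of sterol sensing and transport, and of lipogenic supply and storage. Of 7 further genes listed under sterol synthesis and tested between the 2 pachytene stages none rose and 6 fell (42.9% and 36.1% of all genes). Their median change was -2.61. Msmo1, the methylsterol oxidase, fell by 4.25 on the log2 scale. Nsdhl, which works beside it, fell by 3.71, and Ggps1, which makes geranylgeranyl diphosphate and not a sterol, fell by 2.96. From mid-late-pachytene spermatocytes to spermatids 3 of 5 rose and 1 fell (29.9% and 35.0% of all genes), with changes of 4.0 for Nsdhl, 1.65 for Cyp51, the lanosterol demethylase, and 1.63 for Ebp, a sterol isomerase. Tm7sf2, a sterol reductase, fell by 1.99. Among 8 tested genes of sterol sensing and transport 1 rose and 6 fell between the pachytene stages, to be read against the same 42.9% and 36.1%. Scap fell by 6.99, from levels of 11.12, 11.31 and 11.20 to 3.57 and 4.87, and Mbtps2, the X-linked site-2 protease, fell by 6.55, from 10.69, 10.52 and 10.52 to 4.10 and 3.96. For both genes the later arrays stood far below the earlier ones. Of 13 genes of lipogenic supply and storage 7 rose and 3 fell at that step (42.9% and 36.1% of all genes). Hsd17b12, a ketoacyl-CoA reductase of elongation, fell by 4.65, and Pgd, an NADPH-making dehydrogenase, fell by 4.41. Elovl2, an elongase, rose by 2.71 and Lpin1, a phosphatidate phosphatase, rose by 2.30. From mid-late-pachytene spermatocytes to spermatids 3 of 12 rose and 5 fell (29.9% and 35.0% of all genes), and Plin2, which coats lipid droplets, rose by 3.38.

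In trisomic liver 2 of the 24 tested genes were higher than in euploid liver (5.77% of all genes were higher) and none was lower (3.78%). These were Scd1 and Fads2, both desaturases. At an unadjusted p below 0.05, 8 members were higher and 0 were lower by limma, while of all 8180 genes tested 1004 were higher and 812 lower. These p-values use a spread shared over all cell types, which is too small for genes that vary more in liver. Acly, Fasn and Me1, all among the 8, had spreads within groups of 0.43, 0.72 and 0.51 in liver. In germ cells these were 0.11, 0.35 and 0.14. The 8 were not counted again with the liver arrays alone, where 0 members passed an adjusted p of 0.05. Of the 24 members 17 had a positive difference, as had 3935 of all genes. The members' median was 0.28 on the log2 scale, against -0.01 for all genes tested. The genotypes were separate, with no array overlapping, for 6 members, all higher in trisomic liver (11.8% of all genes), and 0 members were lower without overlap (11.3%).

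Scd1 had levels of 14.80, 13.74 and 13.70 in euploid liver and 15.03, 14.96 and 15.18 in trisomic liver. Every trisomic array was above every euploid one, but euploid array 1 was much closer to the trisomic arrays than to the other euploid ones. The difference was 0.98 (SE 0.20, adjusted p = 0.00335), or 1.97-fold. Fads2 had 11.14, 10.48 and 10.90 in euploid and 11.47, 11.49 and 11.21 in trisomic liver, with a difference of 0.56 (SE 0.15, adjusted p = 0.022). The groups were separate but nearly touched, and the call was lost without euploid array 2, trisomic array 1 or trisomic array 2 (adjusted p = 0.0917, 0.0751 and 0.0752). It was also lost when each array was centred on its median (0.43, adjusted p = 0.11), which turned the split of all genes from 472 higher and 309 lower to 340 and 522. The spread used for these tests is shared over all cell types. Both genes sat at the floor in germ cells, where their spread within groups was 0.025 and 0.10, against 0.45 and 0.26 in liver. With the liver arrays alone neither passed (adjusted p = 0.212 for Scd1 and 0.258 for Fads2), in a fit in which 19 of all genes, or 0.232%, passed in either direction and 0 members did.

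**Figure D3:**
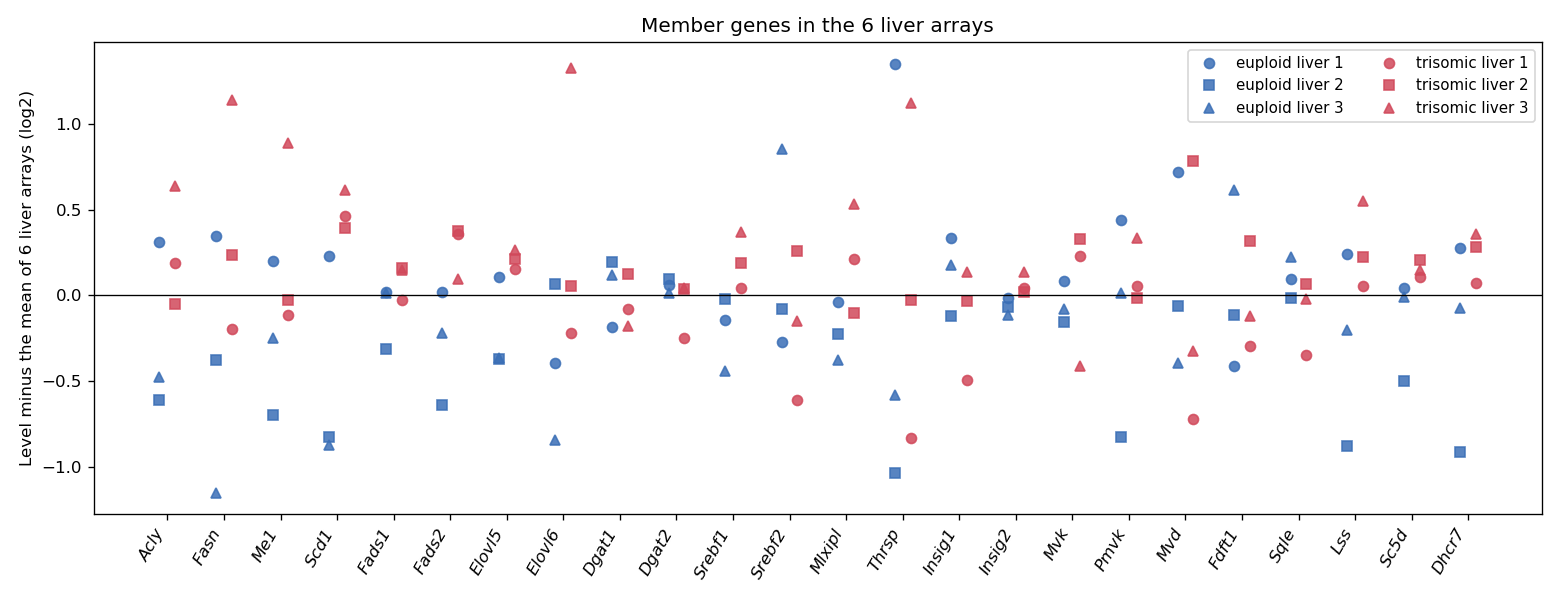
Level of each of the 24 tested genes on the 6 liver arrays, as the difference (log2) from the gene's mean over these arrays. Blue marks euploid and red trisomic liver, and the shape marks the array number. For Scd1 and Fads2 no red point lies among the blue ones, although euploid array 1 of Scd1 (14.80) and of Fads2 (11.14) lies close to the trisomic arrays, whereas for Fasn, Thrsp and Elovl6 the genotypes overlap.

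The members varied more between liver arrays of a group than genes did in general. Their median spread within liver groups was 0.39, against 0.19 within germ cell groups, and 18 of the 26 had the larger spread in liver. For all genes tested in liver these medians were 0.25 and 0.24. Some of the 18 sat at the floor in germ cells, where their spread was small, such as 0.025 for Scd1 and 0.022 for Elovl6. The 26 also include Gpam and Pnpla3, which were below the minimum for a test and had a germ cell spread of 0.024 each. Euploid array 2 was the lowest of the 6 liver arrays for 10 of the 24 members, and trisomic array 3 the highest for 11. The shares over all genes were not counted for these arrays or for the larger spread in liver. Thrsp had 14.40, 12.01 and 12.47 in euploid and 12.21, 13.02 and 14.17 in trisomic liver, so that 1 array of each genotype stood high. Fasn had 13.12, 12.40 and 11.62 in euploid and 12.58, 13.01 and 13.91 in trisomic liver, a difference of 0.79 (SE 0.37, adjusted p = 0.211) with overlap. Elovl6 had a difference of 0.78 (SE 0.28, adjusted p = 0.0879), which passed without euploid array 2 (adjusted p = 0.0369) or trisomic array 1 (adjusted p = 0.0181). Without euploid array 1, Acly (adjusted p = 0.00472) and Lss (adjusted p = 0.0196) joined Scd1 and Fads2, so that the count of higher members was 4. These gained calls rest on the spread shared over all cell types. Elovl6, Acly and Lss had spreads within liver groups of 0.67, 0.43 and 0.44, against 0.022, 0.11 and 0.19 within germ cell groups. With all 6 liver arrays alone 0 members passed.

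By role, all 3 fatty acid synthesis genes and all 5 of desaturation and elongation had positive differences, with medians of 0.52 and 0.56. Of all 8180 genes tested 3935 were positive. The genes were measured on the same arrays, so these counts are not independent. Fatty acid synthesis had median deviations from the gene means of 0.31, -0.61 and -0.48 on euploid and -0.11, -0.03 and 0.89 on trisomic arrays. These overlapped. Desaturation and elongation had 0.02, -0.37 and -0.37 on euploid and 0.15, 0.21 and 0.27 on trisomic arrays, without overlap. The 8 sterol synthesis genes had a median difference of 0.17, with 5 positive, and the 2 tested triglyceride genes, Dgat1 and Dgat2, had differences of -0.09 and -0.11. Of the regulators, Srebf1 had 12.74, 12.88 and 13.06 in trisomic against 12.55, 12.67 and 12.25 in euploid liver. These groups did not overlap, but the difference of 0.40 (SE 0.15) did not pass (adjusted p = 0.101). Srebf2 and Insig1 had differences of -0.33 (SE 0.27) and -0.26 (SE 0.22), which did not pass either. Elovl5, Insig2 and Sc5d were separate without passing, with differences of 0.42, 0.13 and 0.31.

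**Figure D4:**
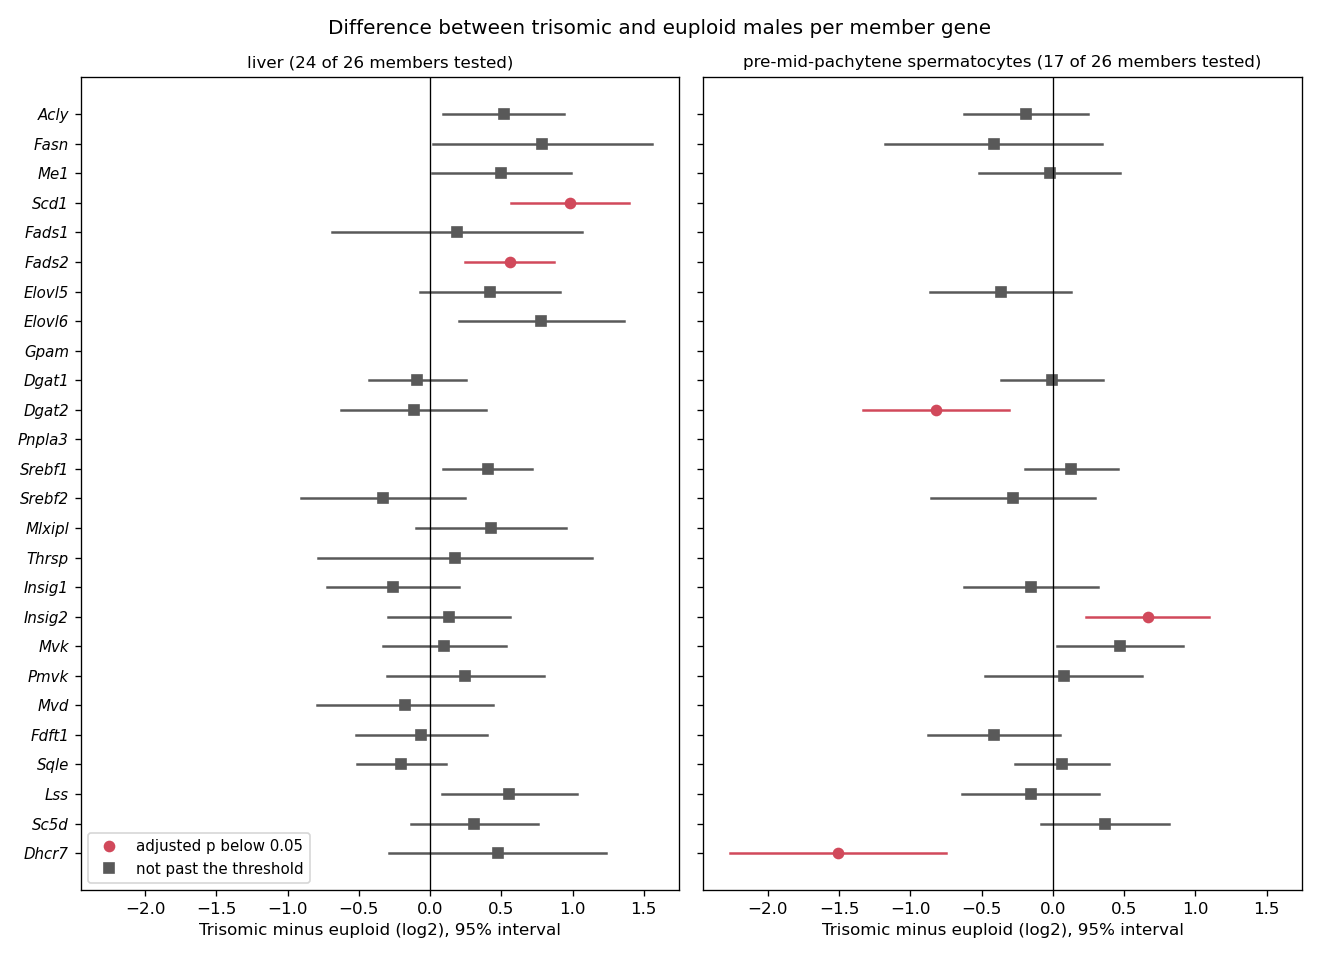
Trisomic minus euploid difference (log2) of each gene in liver (left) and pre-mid-pachytene spermatocytes (right), with the 95% interval of limma. Red circles passed an adjusted p of 0.05 and grey squares did not; a gene without a point had a mean below 4 there. In liver Scd1 (0.98) and Fads2 (0.56) passed, and in pre-mid-pachytene spermatocytes Insig2 (0.67), Dgat2 (-0.82) and Dhcr7 (-1.51) did.

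Among related genes in liver, 0 of 7 further genes listed under sterol synthesis passed by limma (5.77% of all genes were higher and 3.78% lower). At an unadjusted p below 0.05 there were 0 of these 7, against 1004 higher and 812 lower of all 8180 genes. Ebp and Tm7sf2, those of the 7 with the highest mean level, had differences of 0.12 (SE 0.44) and 0.14 (SE 0.16). Of 13 genes of sterol sensing, uptake and export 1 was higher and 2 were lower (5.77% and 3.78% of all genes). Cyp7a1, the rate-limiting enzyme of bile acid synthesis, had 10.61, 10.41 and 10.49 in euploid and 8.58, 9.79 and 9.03 in trisomic liver, and fell by 1.37 (SE 0.19). Mylip, which sends lipoprotein receptors to degradation, fell by 1.34, and Abcg5, a sterol exporter, was 0.52 higher with overlapping arrays. Of 17 genes of lipogenic supply and storage 4 were higher and 1 was lower, to be read against the same 5.77% and 3.78%. Lpl, the lipoprotein lipase, had 9.23, 8.41 and 9.27 in euploid and 12.47, 12.76 and 12.61 in trisomic liver. This 12.5-fold difference (log2 3.65, SE 0.25, adjusted p = 6.51e-08) passed with the liver arrays alone as well (adjusted p = 0.0127). Cd36, a fatty acid carrier of the cell surface, was 2.24 higher, and Acss2, which makes acetyl-CoA from acetate, was 1.41 higher. Elovl3, an elongase, fell by 4.17, with overlap. With the liver arrays alone Cd36, Acss2, Elovl3, Cyp7a1, Mylip and Abcg5 did not pass, with adjusted p from 0.121 to 0.333.

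Other genes moved with genotype in the same livers. The counts below are to be set beside the 5.77% of all genes that were higher and the 3.78% that were lower. All 6 tested female-biased liver genes were higher in trisomic males, with a median level per array of 7.73 to 10.79 against 2.27 to 4.11 in euploid males, and 8 of 9 male-biased genes, Elovl3 among them, were lower, with 3.48 to 10.70 against 11.39 to 13.99. Clock genes had a median of 5.71 to 6.29 in trisomic and 6.84 to 7.04 in euploid liver, and 2 of 8 tested were lower. Markers of stellate and stromal cells had 7.67 to 8.43 in trisomic and 6.02 to 6.14 in euploid liver, with 1 of 5 higher. Alas2, the red blood cell marker with a probe set, fell, from 12.27 to 12.96 in euploid to 10.54 to 11.54 in trisomic liver. Of 2 tested cholangiocyte markers 1 was higher, with a median over the list of 3.85 to 3.89 in trisomic and 3.13 to 3.85 in euploid liver. Fasting genes overlapped, at 11.29 to 12.00 against 10.54 to 11.95, and 2 of 7 were higher. The part of these in the differences of Scd1 and Fads2 was not tested.

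In pre-mid-pachytene spermatocytes 1 of 17 tested members was higher in trisomic males (5.88% of all genes) and 2 were lower (4.46%). Dhcr7 had 6.61, 5.72 and 5.42 in euploid and 4.26, 4.75 and 4.21 in trisomic cells, without overlap. It was 2.84-fold lower (log2 -1.51, SE 0.36, adjusted p = 0.0148), and the call was lost without euploid array 1 (adjusted p = 0.0666) or trisomic array 1 (adjusted p = 0.0714). Dgat2 had 9.63, 9.83 and 9.83 in euploid and 8.62, 8.78 and 9.42 in trisomic cells, without overlap. It was 1.77-fold lower (log2 -0.82, SE 0.24, adjusted p = 0.0397), and the call was lost when any 1 of the 3 euploid arrays or trisomic array 1 or 2 was left out, with adjusted p from 0.0635 to 0.188. Insig2 was higher by 0.67 (SE 0.21, adjusted p = 0.0473), with 12.77, 12.70 and 12.18 against 11.93, 12.21 and 11.51. These arrays overlapped, and the call was lost without euploid array 1 or 3 or trisomic array 1 or 2, with adjusted p from 0.0893 to 0.219.

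With the pre-mid-pachytene arrays alone 4 genes, or 0.0477% of those tested, passed and 0 members did, with adjusted p of 0.0952 for Dhcr7, 0.13 for Dgat2 and 0.18 for Insig2. The members' median difference was -0.15, while the median of all genes was 0.11. Centring each array changed the split of all genes from 493 higher and 374 lower to 820 and 335. Fasn, Fdft1, Dgat2 and Dhcr7 were lower without overlap (9.46% of all genes) and 0 members were higher without overlap (20.8%). Of 7 further genes listed under sterol synthesis 1 passed, Ggps1, which fell by 1.33 (4.46% of all genes were lower). Its product, geranylgeranyl diphosphate, is not a sterol. Markers of round spermatids had a median level of 9.43 to 9.81 in trisomic and 10.26 to 11.11 in euploid pre-mid-pachytene spermatocytes. Of these markers 3 of 7 were lower (4.46% of all genes). Pachytene markers had 12.67 to 12.78 in trisomic and 12.08 to 12.60 in euploid cells, and 1 of 7 was higher (5.88% of all genes). Dgat2 was 4.70-fold higher in euploid spermatids than in euploid pre-mid-pachytene spermatocytes, whereas Dhcr7 was 3.98-fold lower there. Elongating spermatid markers had a median of 13.71 to 14.58 in trisomic and 13.83 to 14.26 in euploid cells, and 0 of 6 passed. Sertoli cell markers had a median of 3.83 to 4.01 in trisomic and 4.03 to 4.25 in euploid cells, and spermatogonial markers had 2.80 to 3.03 and 3.11 to 4.84. These 2 medians lie near the background range. Of the Sertoli markers 0 of 4 tested passed, with a median change of 0.02, and of the spermatogonial markers 0 of 2, with 0.04. The part of these cells in the differences was not tested.

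No member passed the test between genotypes in the later stages. In mid-late-pachytene spermatocytes 0 of 15 tested members were higher (0.569% of all genes) and 0 were lower (0.396%), and none had an unadjusted p below 0.05. In spermatids 0 of 14 were higher (0.290%) and 0 lower (0.531%), and 1, Mvk, had an unadjusted p below 0.05. It had 5.95, 6.0 and 5.81 in euploid and 6.72, 6.79 and 6.60 in trisomic spermatids. Its difference of 0.78 (SE 0.21) did not pass the test (adjusted p = 0.0893), although the groups were separate, as were 7.45% of all genes in this direction. Acly and Srebf2 were lower without overlap (5.57% of all genes), with differences of -0.13 and -0.31. The fits with the arrays of these cell types alone called 0 members as well. Among related genes Tecr, a reductase of fatty acid elongation, was 1.26 higher in trisomic mid-late-pachytene spermatocytes, with 10.23 and 10.30 against 8.91 and 9.10 and with an adjusted p of 0.4 in the fit of that cell type alone. Aacs, which activates acetoacetate, fell by 0.80 in trisomic spermatids (adjusted p = 0.199 in that cell type alone), with 6.70, 6.79 and 6.74 against 7.62, 7.48 and 7.51.

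The trisomic minus euploid differences of liver and of germ cells were compared as interaction terms, over genes whose mean reached 4 in both. Against pre-mid-pachytene spermatocytes 1 of 17 members, Dhcr7, had the higher difference in liver (1.95% of all genes) and 0 the lower (3.26%). At an unadjusted p below 0.05, 5 members had the higher and 0 the lower difference, against 476 and 1020 of all 6510 genes tested. These p-values also use the spread shared over all cell types. The Dhcr7 difference was 0.47 in liver and -1.51 in pre-mid-pachytene spermatocytes, and the interaction was 1.98 (SE 0.50, adjusted p = 0.0302). The interaction did not pass with the arrays of these 2 cell types alone (adjusted p = 0.0538), nor when any of 7 single arrays was left out, euploid liver array 2, trisomic liver array 1, 2 or 3, euploid pre-mid-pachytene array 1 and trisomic pre-mid-pachytene array 1 or 3, with values from 1.64 to 2.06 and adjusted p from 0.0506 to 0.0747. Against mid-late-pachytene spermatocytes 0 of 15 members had a higher (0.561%) or lower (0.363%) difference in liver, and against spermatids 0 of 14 (0.683% higher and 0.300% lower). At an unadjusted p below 0.05 the members were 1 higher and 0 lower in the former comparison (305 and 342 of all 6058 genes) and 1 higher and 1 lower in the latter (390 and 388 of all 6006 genes), and the fits with the compared cell types alone called 0. Centring changed the split of all genes from 127 higher and 212 lower to 117 and 748 against pre-mid-pachytene spermatocytes, and from 41 and 18 to 29 and 29 against spermatids. Scd1 and Fads2 were below the minimum in germ cells, so their liver differences were not compared with those of germ cells.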

How the data were processed

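RNA from 22 samples was hybridised to 1-colour Affymetrix arrays, after Two-Cycle labelling per the labels' protocols. The deposited values are log2 intensities that the authors computed with GCRMA, per the submitters' processing notes; its version and whether all arrays were normalized together are not given in the sources used here. No further normalization was applied. Probe sets were named through the platform annotation. Of 16539 probe sets 759 had no single gene name.

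All 22 arrays were fitted with limma 3.58.1 (R 4.3.3) with 8 group means and 1 spread per gene. Contrasts were tested two-sided over genes with a mean level of at least 4 in the cell type (in 1 of both for levels, in both for interactions), with Benjamini-Hochberg adjustment. The procedure was tested on simulated data with 1 spread per gene for all cell types. That simulation could not show what happens where the spread differs between liver and germ cells. Genes that vary in liver and sit at the floor in germ cells receive too small a spread, so the fit of the compared cell types alone is given beside such calls. Precision is limited by the number of arrays, 2 or 3 a group.

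The members and lists were chosen with earlier results of these data known. All members are named; of each other list and comparison, up to 4 genes past the threshold by size were eligible, or the 2 with the highest mean where none passed. Alternatives were no minimum, a minimum of 6, quantile normalization, centring on array medians, the compared cell types alone, a replicate block, a trended, robust estimate of the spread and leaving out each array. The deviations of arrays with the same number from their group means had r from -0.129 to 0.324 over all cell types. In liver these r were 0.068, 0.196 and 0.086, each above those of arrays with different numbers (-0.152 to 0.060). No label gives the number as a pairing, so it was not taken as one, and the replicate block was run as an alternative. Promoter windows are RefSeq's (GRCm38.p6).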

Additional observations from a re-analysis of the deposited data

Results flagged for a closer look

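The trisomic minus euploid difference of Dhcr7, the last reductase of cholesterol synthesis, passed the test between liver and pre-mid-pachytene spermatocytes, but not under every alternative. It was 0.47 on the log2 scale in liver and -1.51 in pre-mid-pachytene spermatocytes, and the test of the difference itself gave 1.98 (SE 0.50, limma, adjusted p = 0.0302). The liver arrays overlapped, at 12.61, 11.42 and 12.26 in euploid and 12.40, 12.61 and 12.69 in trisomic males, and the liver difference did not pass on its own (adjusted p = 0.514). In pre-mid-pachytene spermatocytes 3 of 3 trisomic arrays were below every euploid array. Over the 18 alternatives and left-out arrays in which Dhcr7 was tested, the interaction lay between 1.64 and 2.24, with adjusted p from 0.0204 to 0.0747 by limma. The call was lost in 9 of these 18. With a minimum of 6 Dhcr7 was not tested, because its means in pre-mid-pachytene spermatocytes were 5.92 in euploid and 4.41 in trisomic males.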

How the results depend on the processing

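Of 26 counts of members that passed a test, 19 stayed within 1.5 times their value under every alternative run. Of these 19, 10 were 0 throughout and say nothing about stability. No difference named in a test between genotypes changed direction. The 2 members higher in trisomic liver became 1 with centring, 1 with the replicate block, 0 with the liver arrays alone and 1 to 4 when single arrays were left out. The 1 member higher in trisomic pre-mid-pachytene spermatocytes became 0 without a minimum level, 0 with quantile normalization, 0 with that cell type alone and 0 to 1 with arrays left out. The 2 lower there became 1 without a minimum, 1 with a minimum of 6, 0 with that cell type alone, 1 with the replicate block and 0 to 2 with arrays left out. From pre-mid- to mid-late-pachytene spermatocytes centring gave 8 rises and 5 falls. Falls from mid-late-pachytene spermatocytes to spermatids numbered 3 to 5 with arrays left out. The 1 interaction between liver and pre-mid-pachytene spermatocytes became 0 with a minimum of 6, 0 with these cell types alone, 0 with the replicate block and 0 to 2 with arrays left out. The arrays share only a number, so the block is no paired test; under it Fads2 in liver and Dgat2 in pre-mid-pachytene spermatocytes had adjusted p of 0.0539 and 0.0559. Except where an alternative tests fewer genes or arrays, the cause was not tested. Levels near the array floor and 2 or 3 arrays a group limit all comparisons.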
